A study of Bos taurus with 8 samples.

Results

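The messages of the superoxide dismutases SOD1 (ENSBTAG00000018854) and SOD2 (ENSBTAG00000006523) were followed in blood mononuclear cells of Tharparkar and crossbred cattle, before heat and after 7 days of it. The genes were taken by these 2 identifiers out of the 24596 in each deposited table, and both passed the filter on low counts that left 11711 genes. The tables pair no identifier with a symbol, so the names come from outside the files and were not checked against sequence here.

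Superoxide dismutases convert the superoxide radical into hydrogen peroxide and oxygen, and catalase and peroxidases then remove the peroxide. SOD1 is the copper and zinc enzyme, found mostly in the cytosol and made at a steady rate in most cells. SOD2 is the manganese enzyme of the mitochondrial matrix, where the respiratory chain gives off superoxide. In leukocytes and other cells the SOD2 gene is known to respond to inflammatory cytokines through NF-kB.

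Mononuclear cells are the white blood cells with round nuclei, mainly lymphocytes and monocytes. Tharparkar is a zebu breed of India, and the labels do not give the parent breeds of the crossbred animals. Day 0 is before heat and day 7 is after it, although the stress label reads heat at both days, and neither age nor sex nor chamber conditions are given. Each of the 4 breed and day groups is RNA pooled from 5 animals and has 2 files labelled as replicates. No group of animals kept without heat for 7 days is among the samples, so heat and elapsed time cannot be told apart. The tables name no genes, so the labelled cell type was not checked against its markers. In such bulk RNA, fewer cells of a type and less RNA per cell cannot be told apart.

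The files of a group did not behave as separate samples. Their counts differed by less than independent reads of 1 library would, with a median chi-square ratio between 0.0762 and 0.112 over the groups, where independent reads give 1. They were therefore averaged and counted as 1 library, so every comparison has n = 1 per group and no test against variation between animals. The mean libraries held between 5201318 (Tharparkar, day 7) and 8571528 counts (crossbred, day 0). All 95% intervals below cover counting error only, because each group is 1 library. The reads carry no molecular identifiers, so the intervals treat each read as independent and may be too narrow.

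SOD1, the cytosolic enzyme, was higher in Tharparkar than in crossbred cells at both days in scaled counts. In replicates 1 and 2 it had 1030.31 and 1010.99 expected counts in crossbred at day 0, and 1011.72 and 988.02 at day 7. In Tharparkar it had 962.2 and 938.81 at day 0, and 846.53 and 847.45 at day 7. Since the Tharparkar libraries are smaller, these counts correspond to higher levels there.

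In CPM, counts per 1000000 after scaling with TMM factors, the SOD1 level was 115 (95% Poisson interval 108 to 123) in crossbred at day 7 and 118 (111 to 126) in crossbred at day 0. It was 153 (143 to 163) in Tharparkar at day 0 and 167 (156 to 179) in Tharparkar at day 7. The Tharparkar intervals lie wholly above the crossbred intervals. The neighbours at the low end of this order, the crossbred days, did not differ beyond counting error, nor did the Tharparkar days at the high end.

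SOD2, the mitochondrial enzyme, stood apart in 1 library, crossbred before heat. Its expected counts there were 538 and 548 in the 2 files, against 377 and 379 in crossbred at day 7. In Tharparkar they were 304 and 301 at day 0, and 253 and 243 at day 7. Scaled to library size, the SOD2 level was 62.8 CPM (57.6 to 68.3) in crossbred at day 0.

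The other 3 groups lay close together in SOD2. They had 43.6 CPM (39.4 to 48.3) in crossbred at day 7, 48.6 (43.2 to 54.4) in Tharparkar at day 0 and 49.0 (43.1 to 55.5) in Tharparkar at day 7. The counting interval of the ratio included 1 for each pair among these 3, and excluded it for each of them against crossbred at day 0.

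**Figure D1:**
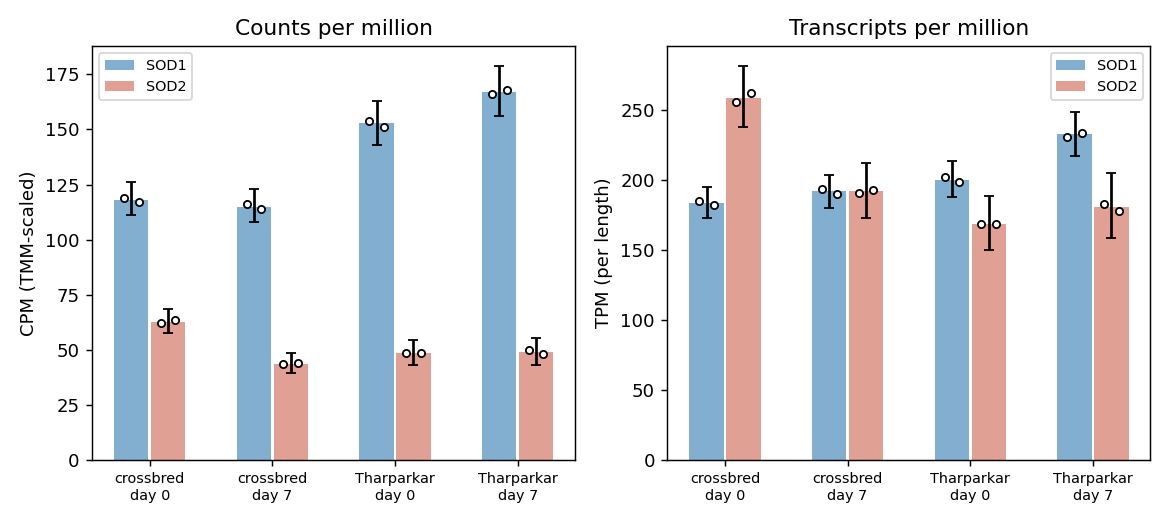
Levels of SOD1 (blue) and SOD2 (red) in the 4 breed and day groups, as TMM-scaled CPM on the left and as TPM, which is per length, on the right. Bars are the mean of the 2 files, open circles the single files, and error bars 95% Poisson counting intervals; SOD1 in CPM is higher in both Tharparkar groups, and SOD2 is highest in crossbred at day 0.

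Over 7 days of heat in crossbred cattle, SOD2 was lower and SOD1 stayed close to its starting level. The log2 fold change of SOD2 was -0.52 (counting interval -0.72 to -0.33), so that day 7 held 0.696 times the day 0 level. For SOD1 it was -0.03 (-0.16 to 0.10), and its sign turned to 0.08 with total counts, 0.06 with TPM and 0.08 with FPKM. A gene was counted as changed at a log2 fold change of 1 or more in size, which 12.8% of the 11711 genes reached in this comparison and neither dismutase did. A change at least as large as that of SOD2 was found in 37.2% of all genes tested, and in 30.1% of the 7769 genes with a mean of at least 10 CPM.

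In Tharparkar cattle neither dismutase passed the threshold over the 7 days, which 8.27% of genes did. SOD1 was higher at day 7 by 0.13 log2 units, a fold of 1.10 with a counting interval from 0.998 to 1.20. In TPM this difference was 0.21 (0.08 to 0.35), an interval that excludes 0. SOD2 gave 0.01 (-0.24 to 0.26), a difference that was not detectable at this depth, and leaving out single files moved it between -0.01 and 0.04. Of all genes tested, 75.4% had a change at least as large as that of SOD1 and 97.9% one at least as large as that of SOD2.

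The day 7 change of SOD2 was therefore more positive in Tharparkar than in crossbred cattle, by 0.53 log2 units (exact conditional counting interval 0.22 to 0.86). For SOD1 the same difference was 0.16 (-0.02 to 0.35). Genes of at most 1125 bases, which include both dismutases, had a median of 0.14 in this difference, from medians of 0.05 in Tharparkar and -0.08 in crossbred over 7 days, and the part of gene length was not tested. In this comparison 27.0% of genes differed by 1 log2 unit or more, neither dismutase among them, and 52.7% of genes differed by at least as much as SOD2.

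Between the breeds before heat, the dismutases went in opposite directions. SOD1 was 1.29-fold higher in Tharparkar (log2 difference 0.37, interval 0.24 to 0.50), whereas SOD2 was at 0.774 times the crossbred level (-0.37, interval -0.58 to -0.17). With total counts, TPM and FPKM the signs were the same. In TPM without a pseudocount the SOD1 difference was 0.12 with a counting interval from -0.0041 to 0.25, which includes 0, and that of SOD2 was -0.62 (-0.82 to -0.41). The threshold of 1 was passed by 7.02% of genes and by neither dismutase, and differences at least as large were found in 39.3% of genes for SOD1 and in 39.4% for SOD2.

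After 7 days of heat SOD1 was 1.45-fold higher in Tharparkar than in crossbred cells (log2 difference 0.53, interval 0.40 to 0.67), the highest fold of SOD1 among the comparisons of breed and day. It was 0.37 with total counts, 0.28 with TPM and 0.37 with FPKM. SOD2 differed by 0.17 (-0.07 to 0.40). This difference was 0.16 with DESeq2 size factors, -0.0001 with total counts, 0.0037 with FPKM and -0.09 with TPM, so its size and sign depend on the scaling. Here 14.9% of genes passed the threshold and neither dismutase did. Of all genes tested, 39.4% differed by at least as much as SOD1 and 78.7% by at least as much as SOD2. The same class of 2350 short genes had a median log2 difference of 0.23 (Tharparkar minus crossbred) at day 7 and 0.08 at day 0. The part of gene length in the SOD1 differences was not tested.

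**Figure D2:**
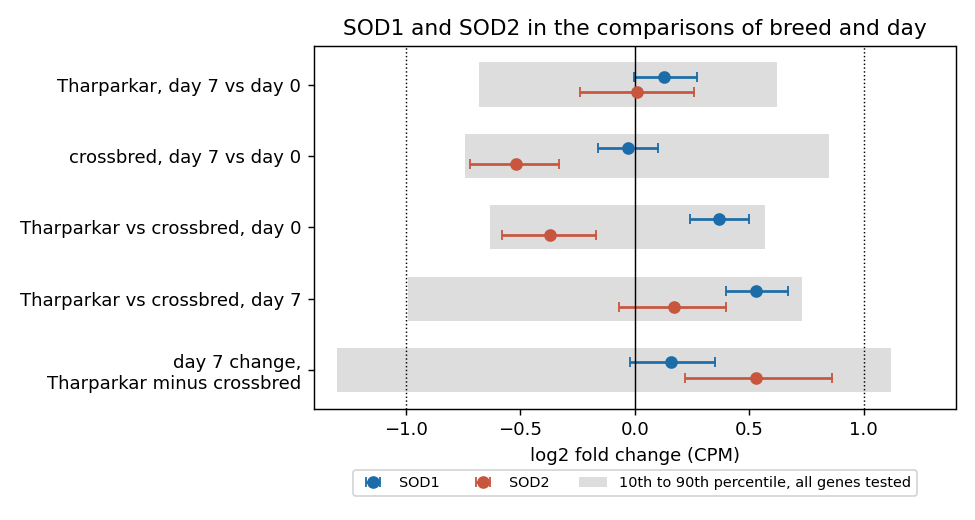
Log2 fold change in CPM of SOD1 (blue) and SOD2 (red) in 4 comparisons of breed and day and in the difference between the breeds' day 7 changes. Error bars are 95% counting intervals, grey bars span the 10th to 90th percentile of all 11711 genes, dotted lines mark a log2 fold change of 1 in size, and both genes lie within the grey bars in each comparison.

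The comparison of the cytosolic with the mitochondrial enzyme needs values per length, because the annotated genes differ in it. SOD1 is listed with 1 transcript of 856 bases and SOD2 with 1 transcript of 413 bases, while the median length of genes tested was 1918 bases. Only 1.27% of the tested genes were shorter than the listed SOD2. The deposited TPM (transcripts per 1000000) divide by an effective length, which was about 712 bases for SOD1 and 269 bases for SOD2. A 413-base model is too short for the whole coding sequence of the SOD2 precursor, so its counts cover only part of that message, and its level against other genes depends on that model.

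By the deposited TPM, SOD2 exceeded SOD1 beyond counting error only in crossbred cattle before heat among the 4 libraries. The mean TPM there were 259 for SOD2 and 184 for SOD1, a ratio of 1.41 (counting interval 1.27 to 1.57). In crossbred at day 7 both were at 192 TPM, a ratio of 1 (0.887 to 1.13). In Tharparkar the ratio was 0.843 (0.738 to 0.960) at day 0, from 169 and 200 TPM. At day 7 it was 0.776 (0.671 to 0.895), from 181 and 233 TPM. With the full gene length in place of the effective length the 4 ratios were 1.10, 0.784, 0.660 and 0.607 in the same order. The point of equality thus depends on the length used. No counting interval was formed for the full-length ratios, so whether 1.10 lies beyond counting error was not tested. The order of the libraries could not change, because the exchange multiplies each ratio by nearly the same factor.

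In a comparison of the ratio between libraries, the length by which each gene is divided and the scaling of the libraries cancel. A shift between libraries that goes with gene length need not be equal for both genes, and its part was not tested. From day 0 to day 7 the ratio of SOD2 to SOD1 counts changed by -0.49 log2 units in crossbred (exact conditional interval -0.72 to -0.26) and by -0.12 in Tharparkar (-0.40 to 0.17). It was lower in Tharparkar than in crossbred cells, with a log2 difference of -0.74 (-0.99 to -0.50) at day 0 and -0.37 (-0.64 to -0.10) at day 7. The single files gave TPM ratios of 1.38 and 1.44 in crossbred at day 0, 0.987 and 1.02 in crossbred at day 7, 0.836 and 0.849 in Tharparkar at day 0, and 0.792 and 0.760 in Tharparkar at day 7. These files are near copies within a group, so their closeness is no measure of the spread between samples.

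**Figure D3:**
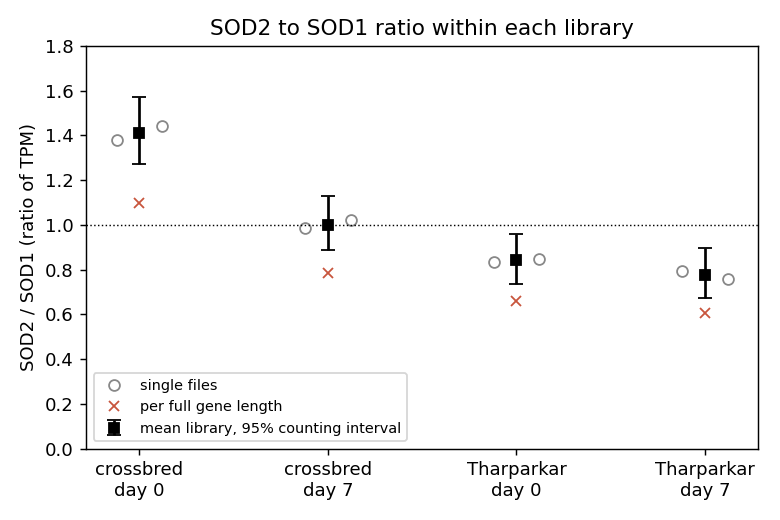
Ratio of SOD2 to SOD1 in TPM within each of the 4 libraries. Black squares are mean libraries with 95% counting intervals, open circles the single files, red crosses the ratio per full gene length, and the dotted line marks equal levels; the ratio is 1.41 in crossbred at day 0 and 0.776 in Tharparkar at day 7.

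SOD1 and SOD2 together took 443 TPM in crossbred at day 0 and 384 TPM at day 7, and 369 and 413 TPM in Tharparkar. SOD2 made up 58.5% of that sum in crossbred at day 0 and 50.0% at day 7, against 45.7% and 43.7% in Tharparkar. These sums and shares rest on the 413-base length of SOD2. Among all genes of a file ranked by TPM, SOD1 took places 460 to 636 and SOD2 places 465 to 603, so both lay at like heights among the expressed genes.

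The counts of SOD1 are not whole numbers in any of the 8 files, which arises where reads that match several genes are split between them. Among 1042 identifiers with such counts in at least 6 files, ENSBTAG00000027412 was the only one whose counts added up with those of SOD1 to whole numbers in all 8 files, within 0.011. It is listed with 822 bases, close to the length of SOD1, and the files give it no name. Its mean counts were 98.35 in crossbred at day 0 and 164.13 at day 7, and 111 and 131.51 in Tharparkar. Of the counts of both identifiers it took 8.79% and 14.1% in crossbred, and 10.5% and 13.4% in Tharparkar.

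The split bears on SOD1 where its differences were small. With the counts of both identifiers summed, the log2 change over 7 days was 0.05 (-0.07 to 0.17) in crossbred, opposite in sign to that of SOD1 alone. In Tharparkar it was 0.18 (0.05 to 0.31), an interval that excludes 0 where that of SOD1 alone did not. The breed differences were 0.40 (0.27 to 0.52) at day 0 and 0.52 (0.40 to 0.65) at day 7, close to those of SOD1 alone. The ratio of SOD2 to the summed counts changed over 7 days by -0.58 log2 units (-0.81 to -0.35) in crossbred and -0.17 (-0.45 to 0.11) in Tharparkar. Tharparkar minus crossbred, it differed by -0.77 (-1.01 to -0.53) at day 0 and -0.36 (-0.63 to -0.09) at day 7. SOD2 had whole counts in all 8 files.

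**Figure D4:**
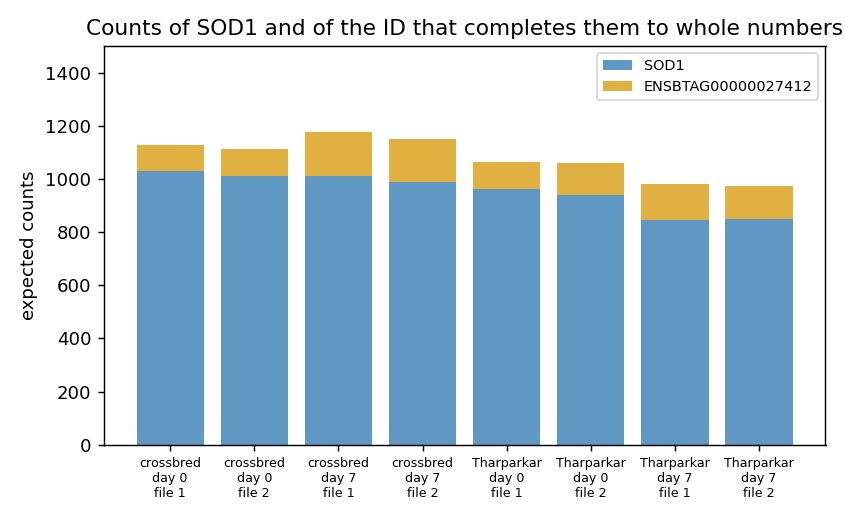
Expected counts of SOD1 (blue) and of ENSBTAG00000027412 (yellow), stacked, in each of the 8 files. Each stack ends at a whole number, from 975 to 1178 counts, and the yellow part is larger at day 7 than at day 0 in both breeds.

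The dismutases varied about as much over the 4 libraries as other genes did. The span from the lowest to the highest log2 CPM was 0.53 for SOD1 and 0.52 for SOD2, and its median was 0.55 over the 7769 genes with a mean of at least 10 CPM. Their patterns over the libraries were not close. The Euclidean distance between their log2 CPM, centred over the 4 libraries, was 0.659, where the median distance of those genes to SOD1 was 0.599.

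By the same distance, the identifiers most like SOD1 were ENSBTAG00000048268, at 0.0250, and ENSBTAG00000009351, at 0.0330. The mean counts of ENSBTAG00000009351 were 389 and 378 in crossbred at day 0 and day 7, and 352.5 and 315.5 in Tharparkar. ENSBTAG00000048268 has counts that are not whole, so its own values are uncertain. Most like SOD2 were ENSBTAG00000002402, at 0.0367, and ENSBTAG00000020783, at 0.0389. ENSBTAG00000002402 had 1788 and 1222 mean counts in crossbred and 1012.5 and 821 in Tharparkar, so its highest scaled level was also in crossbred before heat. With 4 libraries and 7768 candidates such likeness is a description of these libraries.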

How the data were processed

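RNA was sequenced from pools of 5 animals, with 2 files for each of 4 groups. Bowtie2 and RSEM are named in the submitters' processing notes; versions, genome build and annotation are not given in the sources used here. Per the file headers, the deposited tables hold expected counts, TPM, FPKM, and length and effective length in bases.

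For each group a chi-square ratio of the 2 files was computed over genes with at least 20 counts. Below a limit of 1.5 the files counted as 1 library, and their mean counts were used. Genes were filtered with filterByExpr and scaled with TMM in edgeR 4.0.16 (R 4.3.3), and log2 CPM was taken with a prior count of 2. Intervals of counts are exact Poisson, those of ratios exact Clopper-Pearson, and those of ratios of ratios exact conditional, all at 95%. Steps were tested on simulated data that held Poisson counting error only. For the Tharparkar day comparison, 100% of the genes changed 4-fold were recovered at the log2 threshold of 1, where 11502 genes passed the filter. The changed genes had at least 10 CPM, so their recovery was nearly certain. It does not bear on changes as small as those of the dismutases.

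The members, lists and tests were chosen with earlier results of these data known. The rule for named genes took both dismutases and, for each, the 2 identifiers nearest in centred log2 CPM among genes with a mean of at least 10 CPM. Lists of antioxidant, NADPH oxidase, NF-kB and blood cell marker genes had been written as symbols. 0 of 24596 identifiers matched the gene name table, so no list was evaluated. Sequences of the members are not used here. Alternatives were DESeq2 1.42.0 size factors, total counts, a prior count of 0.5, other filters, deposited TPM and FPKM with a pseudocount of 1, single files left out, and edgeR's quasi-likelihood test with files as replicates.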

Additional observations from a re-analysis of the deposited data

Results flagged for a closer look

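The day 7 change of SOD1 was above 0 in Tharparkar and below 0 in crossbred, with a difference of 0.16 log2 units. With files that are near copies within a group, the same signs in all of them show no more than 1 library does. The difference was not tested against variation between animals, its counting interval included 0, the median of short genes was 0.14, and the crossbred sign turned with total counts, TPM and FPKM and with the counts of ENSBTAG00000027412 added (0.05). The day 7 change of SOD2 differed between the breeds by 0.53 log2 units, which lay outside counting error. It was between 0.49 and 0.55 under the other scalings and units, and it too was not tested against variation between animals. SOD2 also belongs to the short genes with the median of 0.14, and the part of gene length in its difference was not tested.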

How the results depend on the processing

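Of 175 alternative values of the dismutase comparisons, 169 stayed within the counting interval of the reported value. Those without a near-copy file or from edgeR's test all did, but could hardly leave it, so 169 is no measure of robustness. The 6 outside it were all breed differences. With TPM, SOD1 differed by 0.12 at day 0 and 0.28 at day 7, and SOD2 by -0.61 and -0.09. SOD1 at day 7 was 0.37 with total counts and 0.37 with FPKM. TPM moved the median of all genes by -0.21 and -0.22 in these comparisons, and total counts by -0.11 and -0.16, and by 0.11 for crossbred over 7 days. The ratio of SOD2 to SOD1 per full gene length was 1.10, 0.784, 0.660 and 0.607.

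Genes past the threshold in Tharparkar over 7 days numbered 1624 without a filter, 280 at a mean CPM of at least 10, 443 with TPM and 443 with FPKM, against 969. In crossbred they numbered 573 with that filter, 967 with TPM and 945 with FPKM, against 1504. Between the breeds at day 0 they numbered 1368, 221, 501 and 411 under the same 4 settings, against 822. At day 7 the filter gave 708 against 1742, and for the breed by day difference 1556 against 3162. The filters change which genes are tested; the cause was not tested for the rest.

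The replicate numbers pair no samples by label, and deviations of same-numbered files correlated between -0.166 and 0.223. edgeR's quasi-likelihood test with files as replicates, which compares libraries and not conditions, gave SOD2 in crossbred a log2 change of -0.52, with a Benjamini-Hochberg adjusted p of 1.12e-08 without and 1.95e-07 with the replicate block. That test called 66.0% of 11652 genes in this comparison and between 47.8% and 66.0% over the 5 comparisons, so a call by it does not set a gene apart. Without the block, edgeR also gave an adjusted p of 0.014 for SOD1 in Tharparkar and 0.0214 for its breed by day difference, where the counting intervals include 0. The block changed no call of either gene. The sums with ENSBTAG00000027412, the intervals in TPM and the interval of the breed by day difference were added after seeing the data. With 1 pool per group, counting error is the only error measured.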
